A study of Mus musculus with 4 samples.

Results

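CDR3 loops with an interior cysteine are T cell receptor β chains whose CDR3, the complementarity-determining loop made by V(D)J joining, holds a cysteine away from both of its conserved ends. They were taken by sequence alone: in-frame rearrangements with a loop of at least 10 residues and a cysteine anywhere from position 5 to the 5th residue from the end. This gave 484 of 237886 in-frame clonotypes, 0.203%, among 261962 listed rearrangements. The 484 rows hold 451 distinct amino acid loops with their V and J segments, and 3 of the rows carry 2 interior cysteines. The remaining 237402 in-frame loops without one served as the comparison.

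The libraries came from CD8+ T cells (DAPI-negative, CD45+, CD3+) sorted from mouse livers bearing metastases of MC38, which the labels call melanomas and which is known as a colon adenocarcinoma line. Both groups were taken 14 days after injection of the tumour cells: 2 libraries from wild-type mice and 2 from mice lacking Vsig4, the gene of a complement receptor and immune checkpoint ligand of Kupffer cells. Whether a group's libraries came from separate mice or pools, and how the Vsig4 allele was made, is not stated in the labels, so every p-value measures only the spread between these libraries. All rearrangements were of the TRB locus, so the sort for CD8 could not be checked against marker genes. A count is the number the deposited table gives for a clonotype, and totals ran from 901567 to 1269480 counts per library. Counts are compared as shares of a library, so a rarer cell and less receptor RNA per cell cannot be told apart.

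The β chain loop runs from a conserved cysteine at the V end to a conserved phenylalanine in J, and its middle is the stretch that usually lies nearest the peptide in the groove of an MHC molecule. A cysteine near the middle is rare in mature receptors. In mice it has been linked to strong self-reactivity in the thymus and to cells that are deleted there or become intraepithelial CD8αα lymphocytes. A T cell can also carry an out-of-frame rearrangement on its other chromosome, which makes no receptor and so passes no selection on its loop.

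The largest clonotypes with an interior cysteine in wild-type 1, wild-type 2 and Vsig4-deficient 1, in that order, are shown first, because they show where in the junction the cysteine of the most abundant loops lies. Capitals mark the interior cysteine codon.
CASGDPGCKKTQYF: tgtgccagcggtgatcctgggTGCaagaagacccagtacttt
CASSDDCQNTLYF: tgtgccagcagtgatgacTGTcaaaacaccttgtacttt
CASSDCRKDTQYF: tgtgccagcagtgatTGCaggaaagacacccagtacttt

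The next 3 are the loops found in 3 of the 4 libraries, the widest sharing that any reached. For the second of them, the sequence with the most counts is given.
TRBV13-2 with TRBJ2-4: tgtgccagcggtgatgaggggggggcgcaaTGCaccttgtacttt
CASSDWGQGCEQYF: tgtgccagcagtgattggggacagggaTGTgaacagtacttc
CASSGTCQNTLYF: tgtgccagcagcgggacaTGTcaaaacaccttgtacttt

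The germline ends that the codon results below turn on were read from the deposited rearrangements, as the most frequent end among those with no base deleted. Capitals mark, in a J end, the codon that lay 1 base from the cysteine codon most often found there, and in TRBV22 a cysteine codon of the segment itself. In TRBD2 they mark the bases TG, with which each cysteine codon starts. TRBJ1-1 and TRBD1 have no such mark.
TRBJ2-4: AGTcaaaacaccttgtacttt
TRBJ2-3: AGTgcagaaacgctgtatttt
TRBJ2-7: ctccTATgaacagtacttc
TRBJ1-1: caaacacagaagtcttcttt
TRBD1: gggacagggggc
TRBD2: gggacTGggggggc
TRBV22: tgtgccagcagtTGTc

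Finally, 1 loop with TRBV22, 1 loop of over 20 residues and 2 out-of-frame rearrangements with a cysteine codon in the V reading frame show what the rule also took in and what it was compared with.
TRBV22 with TRBJ2-2: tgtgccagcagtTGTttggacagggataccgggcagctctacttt
Loop of over 20 residues: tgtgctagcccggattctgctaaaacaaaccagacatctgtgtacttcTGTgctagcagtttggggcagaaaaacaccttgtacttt
Out of frame, TRBV13-1 with TRBJ1-4: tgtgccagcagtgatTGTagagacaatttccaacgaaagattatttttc
Out of frame, TRBV5 with TRBJ2-1: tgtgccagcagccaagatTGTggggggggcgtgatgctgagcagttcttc

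The rule was meant to leave out cysteines of germline V ends, and 23 of the 24 V ends that could be read had no cysteine at position 5. The exception was TRBV22, which RefSeq marks as a pseudogene and which encodes cysteine at position 5. It gave 25 members, 22 of them with a codon made wholly of V bases. Another 5 members had loops of 27 to 56 residues, with at most 4 counts each, and 1 member did not start with cysteine. In each of the 5 long loops an interior cysteine codon began bases like those of a germline V end, as in the one shown above. How these long rows arose was not tested. The shares, segment fits, codon fits, clone size, length and sharing were also computed without these 31 rows, which leaves 453 members. At the edges of the window, cysteine stood at position 5 in 59 loops and just outside it, at position 4, in 94. It stood at the 5th residue from the end in 63 loops and at the 4th from the end, outside the window, in 4. The 17060 loops with cysteine at position 3, of which 16954 used TRBV1, carry the germline cysteine of that segment and were not counted.

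Interior cysteine was rare in every library by clonotypes. It was found in 86 of 47446 in-frame clonotypes of wild-type 1 (0.181%, 95% Wilson interval 0.147% to 0.224%) and in 149 of 73584 of wild-type 2 (0.202%, 0.173% to 0.238%). In Vsig4-deficient 1 it was found in 103 of 46901 (0.220%, 0.181% to 0.266%) and in Vsig4-deficient 2 in 146 of 69955 (0.209%, 0.178% to 0.245%). The wild-type values were both the lower ones, but all 4 intervals overlapped. The mean was 0.192% ± 0.0150 (SD, n = 2) for wild type and 0.214% ± 0.00771 (SD, n = 2) for Vsig4-deficient libraries. The exact two-sided permutation test gave p = 0.333, adjusted p = 0.333 over both shares. That is the smallest p that 2 against 2 libraries can give. With clonotypes under 5 counts left out the difference fell from 0.0223 to 0.00263 percentage points.

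By counts, the share was lower than by clonotypes in all 4 libraries. Members held 963 counts in wild-type 1, 0.110% of in-frame counts, and 1323 in wild-type 2, 0.155%. They held 697 counts in Vsig4-deficient 1, 0.0728%, and 845 in Vsig4-deficient 2, 0.0689%. Both wild-type libraries lay above both Vsig4-deficient libraries, with means of 0.133% ± 0.0314 and 0.0709% ± 0.00279 (SD, n = 2 each), a 1.87-fold difference at p = 0.333 (exact permutation test, two-sided, adjusted p = 0.333). The libraries also differ in their largest clonotypes, none of which has an interior cysteine. Clonotypes over 0.1% of counts held 11.8% and 6.61% of wild-type counts, but 41.6% and 39% of Vsig4-deficient counts. With those clonotypes left out, wild-type 1 and 2 stood at 0.12503% and 0.166%, and Vsig4-deficient 1 and 2 at 0.12471% and 0.113%. The difference, Vsig4-deficient minus wild-type, then changed from -0.0616 to -0.0265 percentage points. Without wild-type 2 it was -0.0394 percentage points, and without wild-type 1 it was -0.0838.

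**Figure D1:**
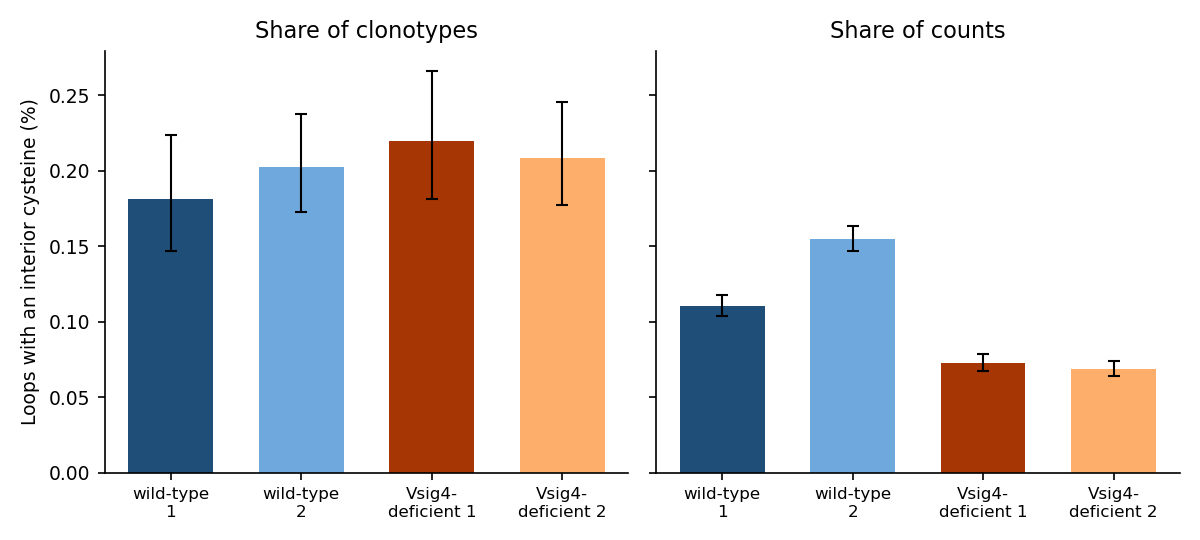
Share of in-frame clonotypes (left) and of in-frame counts (right) with an interior cysteine, in percent, for each of the 4 libraries, with 95% Wilson intervals that cover counting error only. By clonotypes the libraries run from 0.181% to 0.220% with overlapping intervals, while by counts both Vsig4-deficient libraries, 0.0728% and 0.0689%, lie below both wild-type libraries.

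Cysteine codons were far scarcer in frame than out of frame. Codons 5 to 7, counted in the reading frame of V, were compared in clonotypes of at least 45 nucleotides, 83929 in frame and 6180 out of frame, with stop codons left out. In frame, cysteine made up 0.0237%, 0.0234%, 0.0223% and 0.0174% of these codons in wild-type 1, wild-type 2, Vsig4-deficient 1 and Vsig4-deficient 2. Out of frame it made up 0.439%, 0.284%, 0.350% and 0.256%, so that the lowest out-of-frame library was above the highest in-frame one. The numbers behind them are small, with 12, 18, 11 and 13 cysteine codons in frame and 17, 18, 14 and 10 out of frame.

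Among all 20 amino acids tested in 1 edgeR quasi-likelihood fit, 10 differed between the frames at an adjusted p under 0.05 (50.0%), 4 higher and 6 lower in frame. Cysteine had by far the largest log2 ratio, -3.87 ± 0.17 (SE, 4 libraries, adjusted p = 3.4e-06, edgeR), 14.7-fold lower in frame and lower in 4 of 4 libraries. The next largest was lysine, -0.69 ± 0.19 (adjusted p = 0.018, edgeR), followed by tryptophan, which was higher in frame at 0.43 ± 0.05 (adjusted p = 0.00059, edgeR). The codon of tryptophan has the same stem as those of cysteine but a last base of G. Among the germline D sequences shown above TGG occurs, but TGT and TGC do not, so tryptophan is not a matched control. Whether base composition contributes to the cysteine difference was not tested. TRBV22 accounted for 16 of the 59 out-of-frame cysteine codons. Without it and the other unusual rows, the log2 ratio for cysteine was -3.79 ± 0.27 (adjusted p = 4.5e-05, edgeR). The out-of-frame share was then between 9.69 and 21.5 times the in-frame share of the same library.

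**Figure D2:**
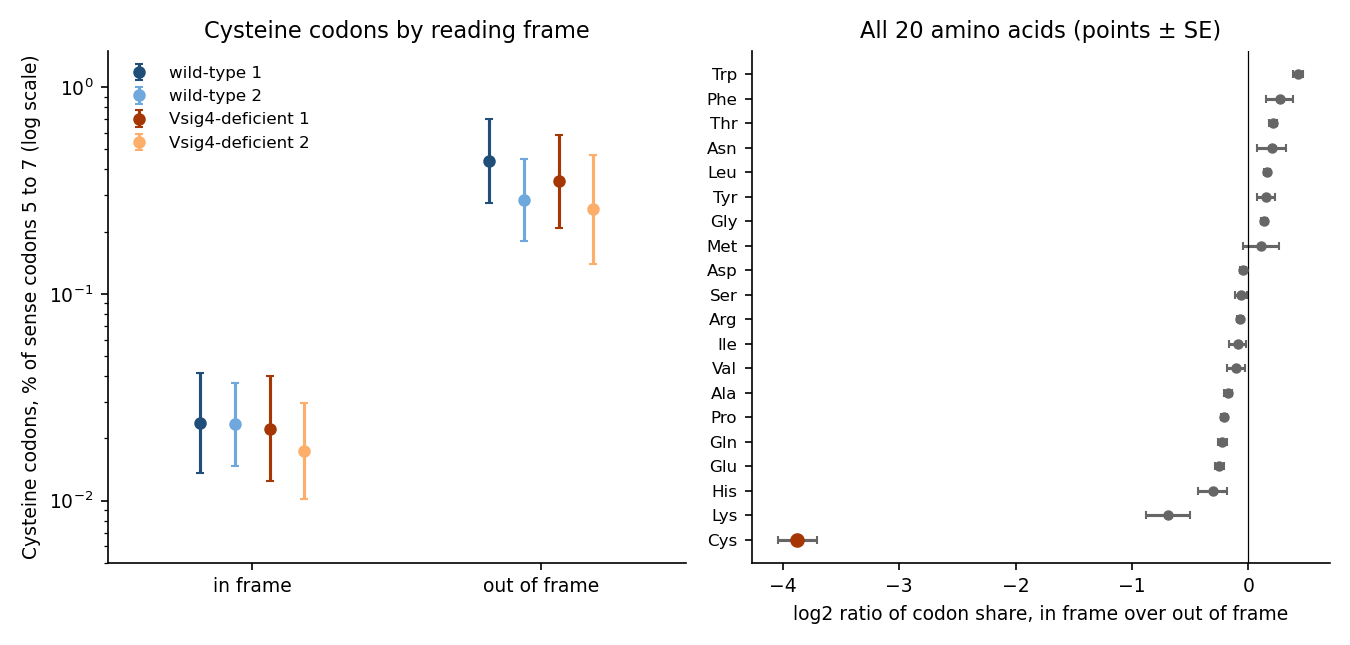
Left, cysteine as a percentage of sense codons 5 to 7 on a log scale, in frame and out of frame, for each library with 95% Wilson intervals. Right, log2 ratio of codon share in frame over out of frame for each amino acid with its SE from the edgeR fit over 4 libraries. Cysteine, at -3.87, stands apart from the other 19, which lie between -0.69 and 0.43.

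Within the loop, the cysteines gathered just before the J end. Of the 487 interior cysteines, 402 (82.5%) lay within 2 residues of the middle of the loop, and the window itself favours that place in short loops. Counted from the end, 196 (40.2%) stood at the 7th residue, 77 at the 8th, 63 at the 5th and 59 at the 6th. The 7th place took 41.4%, 40.3%, 36.2% and 42.5% of the cysteines of wild-type 1, wild-type 2, Vsig4-deficient 1 and Vsig4-deficient 2. The most frequent endings were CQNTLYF (53 loops), CEQYF (52), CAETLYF (39), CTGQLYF (21) and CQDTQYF (21), all of them cysteine followed by the last residues of a J segment.

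By their assignment, the bases of the codon were mostly added at the junction. The first base was inserted, that is, assigned to neither V, D nor J, in 370 of 487 codons (76.0%). The last base was assigned to J in 305 (62.6%). Assignment goes by place, so a base called inserted can still equal the germline base there. The commonest pattern was 2 inserted bases followed by 1 from J (179 codons), then 1 inserted base with 2 from J (88) and 3 inserted bases (82). At least 1 base was assigned to D in 73 codons, and all 3 bases were assigned to V in 24. The codon was TGT in 279 and TGC in 208 cases. In wild-type 1 and 2, TGT made up 55.2% and 59.7% of the codons, between the 44.8% of Vsig4-deficient 1 and the 65.1% of Vsig4-deficient 2.

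Many of these codons sat 1 base away from what the germline J encodes at the same place. An aligned germline J codon could be read for 295 of the 487 codons. It differed from the cysteine codon by 1 base in 171 (35.1% of all 487) and by 2 bases in 115. In TRBJ2-4, 51 of 84 cysteine codons stood where the germline end has AGT, a serine codon. In TRBJ2-3, 39 of 57 stood at the same kind of AGT codon, and in TRBJ2-7, 48 of 102 stood where the germline has TAT, a tyrosine codon. The germline ends of TRBJ1-1, TRBJ1-5, TRBJ2-2 and TRBJ2-5, as read, hold no codon in the window that is 1 base from TGT or TGC. No member with these segments could therefore lie 1 base from its germline codon.

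J use differed from that of other loops. TRBJ2-4 was used by 18.6%, 19.5%, 12.6% and 17.1% of members in wild-type 1, wild-type 2, Vsig4-deficient 1 and Vsig4-deficient 2, against 8.67%, 8.63%, 8.59% and 8.86% of other loops. It was higher among members in 4 of 4 libraries, with a log2 ratio of 0.98 ± 0.14 (SE, adjusted p = 3.5e-07, edgeR). TRBJ1-1 was used by 2.33%, 5.37%, 4.85% and 3.42% of members and by 9.56% ± 0.301 (SD, n = 4) of other loops. It was lower in 4 of 4 libraries (log2 ratio -1.21 ± 0.21, adjusted p = 7.9e-05, edgeR). TRBJ1-4 was lower as well, at 3.08% ± 0.705 against 5.98% ± 0.0576 (SD, n = 4 each; log2 ratio -0.95 ± 0.29, adjusted p = 0.017, edgeR), but not past the threshold in DESeq2, without wild-type 1, without wild-type 2, at 14 residues, or with 1-count clonotypes left out (-0.70, adjusted p = 0.19, edgeR). These were 3 of 12 segments called (25.0%), 1 higher (8.33%) and 2 lower (16.7%).

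Of the other J segments most used by members, TRBJ2-7 held 102, TRBJ2-1 63, TRBJ2-3 56 and TRBJ2-5 51. Only TRBJ2-3 had an adjusted p near the threshold, with 8.14%, 9.40%, 10.7% and 16.4% of members and 8.38% ± 0.395 of others (log2 ratio 0.47 ± 0.17, adjusted p = 0.062, edgeR), passing without wild-type 1 (0.57, adjusted p = 0.037, edgeR) and falling to 0.14 without Vsig4-deficient 2. By segment, interior cysteine was found in 0.40% of TRBJ2-4 loops and 0.0881% of TRBJ1-1 loops. At a single length the comparison rests on fewer members. Among loops of 14 residues, 119 members of 73341 in-frame loops, 0 of 12 segments passed. TRBJ2-4 was at 0.79 (adjusted p = 0.21, edgeR), TRBJ1-1 at -0.01 and TRBJ1-4 at -0.32. In mouse GRCm38.p6 coordinates of RefSeq, TRBJ2-4 lies at chr6:41543362-41543410 and TRBJ1-1 at chr6:41533864-41533911.

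**Figure D3:**
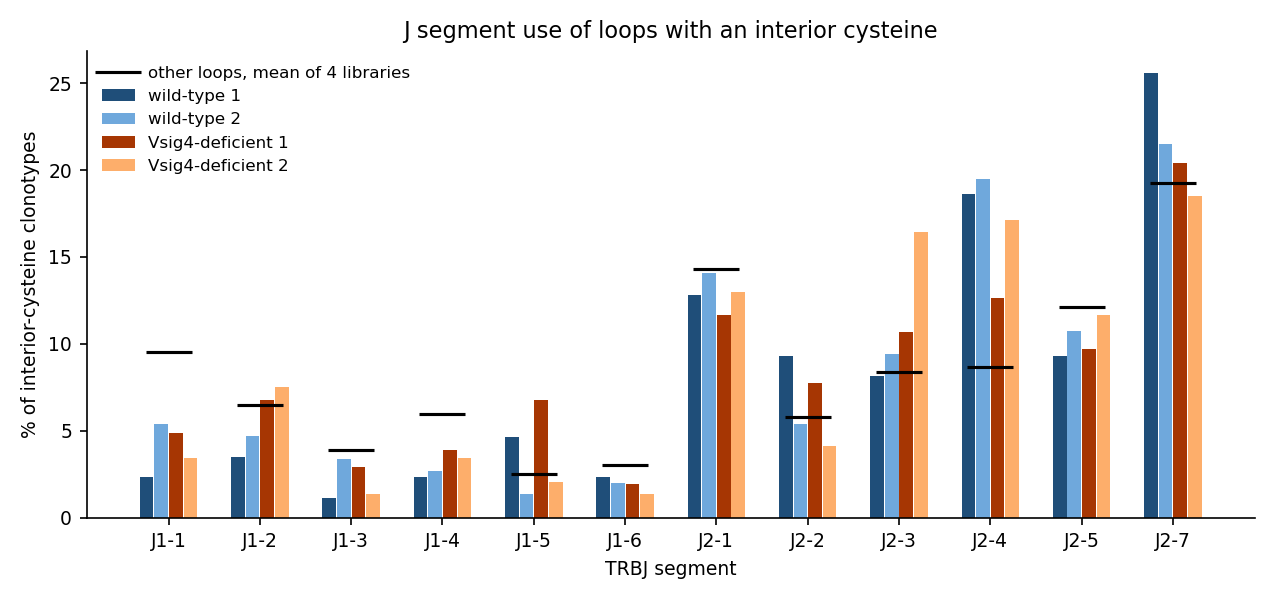
Share of interior-cysteine clonotypes that used each TRBJ segment, in percent, with a bar per library and a black line at the mean of the other loops over 4 libraries. All 4 bars of J2-4 stand above its line at 8.69% and all 4 bars of J1-1 stand below its line at 9.56%.

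Among V segments, 2 of 23 passed (8.70%), both higher in members and both rare. TRBV22, at chr6:41212075-41212534, held 6 of 86, 12 of 149, 3 of 103 and 4 of 146 members against 0.0202% ± 0.00602 (SD, n = 4) of other loops. The log2 ratio was 8.05 ± 0.54 (adjusted p = 1.0e-21, edgeR), which restates its germline cysteine. Of all 71 in-frame TRBV22 loops, 35.2% had the cysteine in the window. TRBV22 was read in frame far less often than out of frame, with 0.0298% of in-frame and 0.826% of out-of-frame rearrangements. TRBV29, which carries the same pseudogene mark in RefSeq, had 15805 in-frame loops and an interior cysteine in 0.165% of them.

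TRBV21, at chr6:41202587-41203044, rested on 4 members among 144 in-frame loops (2.78%; log2 ratio 3.80 ± 1.12, adjusted p = 0.013, edgeR). Its members numbered 1, 2, 0 and 1 in the 4 libraries, and the call was lost without wild-type 1, without wild-type 2, without Vsig4-deficient 2 and at 14 residues. Its largest member, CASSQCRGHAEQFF with 76 counts, was among the largest of wild-type 1. TRBV21 made up 0.0605% of in-frame and 0.603% of out-of-frame rearrangements.

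The V segments that most members used were also the common segments of other loops. TRBV13-2 held 65 members, TRBV13-3 and TRBV3 50 each, TRBV13-1 34 and TRBV12-2 32. Their log2 ratios lay between -0.43 for TRBV13-1 and 0.17 for TRBV3, and none passed the threshold (smallest adjusted p = 0.32, edgeR). TRBV13-2 for instance was used by 15.1%, 10.7%, 13.6% and 15.1% of members and by 12.7%, 12.4%, 12.1% and 14.3% of other loops, which overlap.

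Members used TRBD2 more and TRBD1 less often than other loops in 4 of 4 libraries. TRBD2 was assigned in 43.0%, 42.3%, 36.9% and 42.5% of members and in 33.2%, 33.0%, 31.5% and 31.7% of others. The mean difference was 8.80 percentage points ± 2.37 (SD, n = 4). TRBD1 was assigned in 30.2%, 36.2%, 30.1% and 35.6% of members against 43.2%, 43.3%, 44.9% and 44.7% of others, a difference of -11.0 percentage points ± 3.54 (SD, n = 4). The exact sign-flip test over 4 libraries gave p = 0.13 for each (two-sided, adjusted p = 0.146 over 7 such tests), the smallest it can give. The share with no D assigned did not hold 1 direction (higher in 2 of 4 libraries, p = 0.625, exact sign-flip test). Germline TRBD2 contains TG and TRBD1 does not. The first 2 bases of the codon were assigned to D in 29 of 201 interior cysteine codons of TRBD2 loops and in 8 of 165 of TRBD1 loops. Of these, 4 and 5 had all 3 bases assigned to D, though neither germline D as shown contains TGT or TGC. Assignments to D thus include bases that differ from the germline, the 8 of TRBD1 among them.

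Members were a little longer than other loops. The mean length was 14.0, 14.5, 14.9 and 14.3 residues in wild-type 1, wild-type 2, Vsig4-deficient 1 and Vsig4-deficient 2, against 14.0, 13.9, 14.0 and 14.0 in others. Members were longer in 4 of 4 libraries by 0.472 residues ± 0.381 (SD, n = 4; p = 0.13, exact sign-flip test, adjusted p = 0.146). Without the 31 unusual rows the difference was 0.192, and with 1-count clonotypes left out it was 0.428, each at p = 0.25 (exact sign-flip test), so that members were then not longer in every library. A longer loop also offers more places to the rule: the share with an interior cysteine was 0.162% at 14 residues, 0.225% at 15, 0.277% at 16 and 0.370% at 17. Outside that run it was 0.280%, 0.147%, 0.161% and 0.207% at 10, 11, 12 and 13 residues, and 0.289% at 18. Per 10000 window positions, cysteine stood at 2.70, 3.21, 3.46 and 4.11 of them at 14, 15, 16 and 17 residues. Loops of 13 and 12 residues had 4.13 and 4.12 per 10000 positions, and those of 11 residues 4.91. The highest value, 14.0, was at 10 residues (7 members), and at 18 residues (3 members) it was 2.89. There was thus no steady rise with length.

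Around the cysteine, glycine was the usual neighbour on the V side. It preceded 204 of 487 interior cysteines (41.9%), serine 63 and aspartate 50. Among cysteines at the 7th place from the end, glycine preceded 58.3%, 55.0%, 47.4% and 54.8% in wild-type 1, wild-type 2, Vsig4-deficient 1 and Vsig4-deficient 2. In other loops of at least 12 residues, glycine stood at that 8th place from the end in 35.7%, 35.5%, 35.2% and 35.2%, below all 4 member values. On the J side glutamine (78), alanine (69) and glutamate (59) followed most often, the residues that J ends supply.

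Across the rest of the window, 6 of 19 amino acids passed in edgeR (31.6%), glutamine, tryptophan and glycine higher and valine, tyrosine and serine lower. Glutamine made up 8.88%, 8.72%, 7.26% and 7.31% of the other window residues of members against 5.57%, 5.55%, 5.68% and 5.53% in other loops (log2 ratio 0.52 ± 0.12, adjusted p = 0.00067, edgeR). Valine was at 0.701%, 1.23%, 1.16% and 1.41% against 1.98%, 1.91%, 1.99% and 1.98% (log2 ratio -0.73 ± 0.22, adjusted p = 0.013, edgeR). The other calls were weaker, with log2 ratios of 0.09 for glycine, 0.44 for tryptophan, -0.46 for tyrosine and -0.32 for serine. DESeq2 called only 1 of the 6, glutamine, as did the fits without wild-type 1, without Vsig4-deficient 2 and with lower-quality loops left out. Without wild-type 2, 3 passed. With 1-count clonotypes left out 0 passed, with glutamine at an adjusted p of 0.062 (edgeR). In many members the cysteine stood where the germline J has serine or tyrosine, so lower shares of both can follow from the rule itself. The glutamine of J endings such as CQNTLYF (53 loops) lies in the window, so its share also goes with J use. How much of each call this makes was not tested.

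Clonotypes with an interior cysteine were small. The median member had 3, 3, 2 and 2 counts in wild-type 1, wild-type 2, Vsig4-deficient 1 and Vsig4-deficient 2, against 7, 6, 5 and 3 counts for other loops. The mean log2 count was 1.92, 1.95, 1.76 and 1.38 in members and 2.69, 2.48, 2.38 and 1.83 in others. It was lower in members in 4 of 4 libraries, by 0.60 ± 0.14 (SD, n = 4; p = 0.13, exact sign-flip test, adjusted p = 0.146). A single count was given to 36.0%, 34.9%, 35.0% and 40.4% of members and to 21.4%, 17.6%, 20.9% and 33.0% of others. Members had the larger share in 4 of 4 libraries, by 13.3 percentage points ± 4.20 (SD, n = 4; p = 0.13, exact sign-flip test, adjusted p = 0.146). With 1-count clonotypes left out, members were still smaller by 0.29 on the log2 scale.

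Signs of sequence error were slightly more frequent among members. A larger clonotype 1 nucleotide away, with at least 20 times the counts and the same V, J and length, stood beside 2.33%, 1.34%, 1.94% and 0.685% of members and 0.807%, 0.592%, 0.603% and 0.570% of others. The member shares rest on 2, 2, 2 and 1 clonotypes. The lowest base quality was under the maximum in 4.65%, 2.68%, 2.91% and 4.11% of members and 2.11%, 2.08%, 2.68% and 3.34% of others. With either kind left out, the excess of 1-count clonotypes was 12.8 and 12.9 percentage points. In 16 of 487 interior cysteine codons all 3 bases were assigned to J, though no germline J end as read encodes cysteine in its frame. Each of these codons thus differs from the germline, and the cause was not tested.

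The share with an interior cysteine was lower in each larger class of clone size over the 4 libraries pooled, though not in each library alone. It was 0.317% of clonotypes with 1 count, 0.201% with 2 to 5, 0.155% with 6 to 20, 0.133% with 21 to 100 and 0.0813% of the 2459 clonotypes over 100 counts. The class over 100 counts held 2 members, both in wild-type 1. The share at 1 count exceeded that at 6 to 20 counts in each library, with 0.305% against 0.134%, 0.401% against 0.155%, 0.366% against 0.182% and 0.255% against 0.144%. Of the 182 clonotypes over 0.1% of their library's counts none was a member, which allows a share of up to 1.65%.

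**Figure D4:**
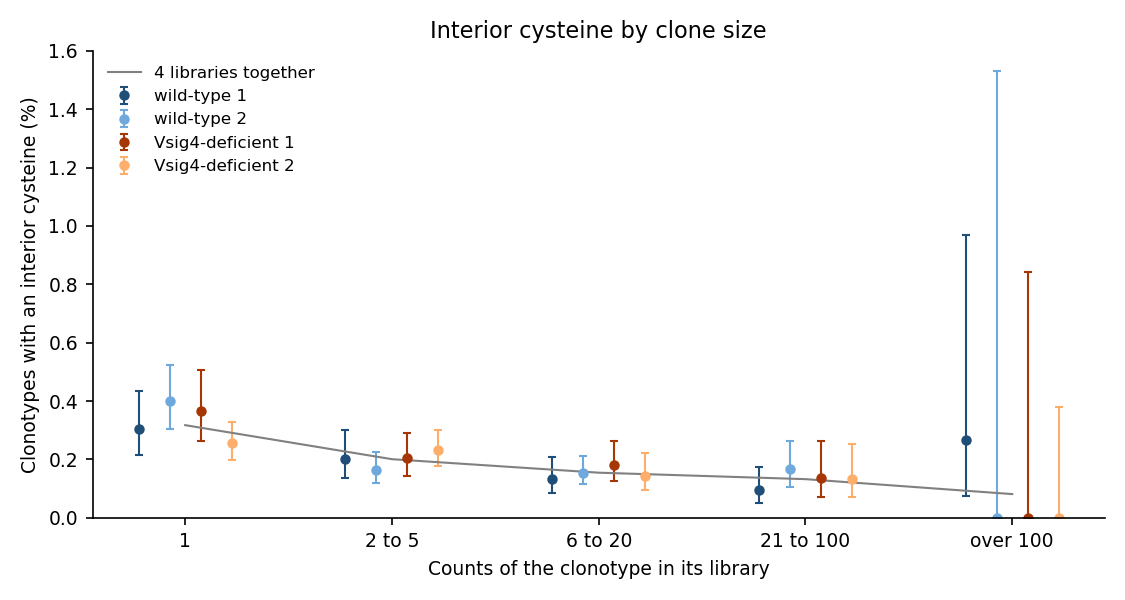
Share of in-frame clonotypes with an interior cysteine, in percent, by the counts of the clonotype, for each library with 95% Wilson intervals and for the 4 libraries together as a grey line. The line runs from 0.317% at 1 count to 0.0813% over 100 counts, where 3 of the 4 libraries have no member.

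The largest members were far from dominant. In wild-type 1 the 5 largest were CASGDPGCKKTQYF (190 counts, rank 171 in its library and 0.0218% of in-frame counts), a TRBV13-2 and TRBJ2-2 loop (106), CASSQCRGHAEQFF (76), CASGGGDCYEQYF (44) and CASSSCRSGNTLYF (40). In wild-type 2 they were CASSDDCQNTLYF (88, rank 326), a TRBV13-2 and TRBJ1-2 loop (78), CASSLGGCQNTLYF (64), a TRBV13-3 and TRBJ2-1 loop (53) and a TRBV13-1 and TRBJ2-4 loop (42). In Vsig4-deficient 1 they were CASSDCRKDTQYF (37, rank 2571), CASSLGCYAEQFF (31), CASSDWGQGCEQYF (30) and loops of TRBV3 and of TRBV31 with TRBJ2-2 (30 each). In Vsig4-deficient 2 the 5 largest included, below the first, SRQGCAETLYF (76), a TRBV13-2 and TRBJ2-3 loop (61), a TRBV1 and TRBJ2-4 loop (51) and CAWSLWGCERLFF (34).

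Of the 20 largest members, 5 of each library, 11 used a TRBV13 segment, as did 149 of all 484 members (30.8%) and 32.0% of other loops. SRQGCAETLYF is the member that lacks the usual first cysteine. The TRBV13-2 loop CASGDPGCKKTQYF and the TRBV21 loop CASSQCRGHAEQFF were found in wild-type 1 alone.

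Members were shared between libraries less often than other loops. Of the distinct amino acid loops of a library, 10.5%, 11.6%, 12.6% and 13.7% of members were also found in another library in wild-type 1, wild-type 2, Vsig4-deficient 1 and Vsig4-deficient 2. Among other loops the shares were 31.0%, 25.8%, 32.3% and 29.1%, and the values of the classes did not overlap. The mean difference was -17.5 percentage points ± 3.11 (SD, n = 4; p = 0.13, exact sign-flip test, adjusted p = 0.146). At equal weight on loops of 13 to 16 residues it was -16.5.

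Over all libraries 423 of 451 amino acid members were found in 1 library, 25 in 2, 3 in 3 and none in all 4, which allows a share of up to 0.665%. Of 185344 other amino acid loops, 1562 (0.843%) were in all 4. The TRBV13-2 and TRBJ2-4 loop shown above had 1, 34 and 2 counts in wild-type 1, wild-type 2 and Vsig4-deficient 1. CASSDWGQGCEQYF (TRBV13-3, TRBJ2-7) had 16, 30 and 1 counts in wild-type 2, Vsig4-deficient 1 and Vsig4-deficient 2, with 2 different nucleotide sequences. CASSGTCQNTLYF (TRBV3, TRBJ2-4) had 4, 1 and 3 counts in wild-type 1, wild-type 2 and Vsig4-deficient 2. All 28 shared members had fewer than 5 counts in at least 1 of their libraries, and 21 had a single count there. In 26 of the 28 the nucleotide sequence was the same in each library. The same numbers are not given for other shared loops, so low counts and equal sequences do not set members apart. Of the 28 shared members, 16 (57.1%) were shared within 1 genotype only. Among the 28285 other loops found in more than 1 library, 38.6% were. A larger share of those was in 3 or 4 libraries, which always span both genotypes. Of loops in exactly 2 libraries, the shares within 1 genotype were 16 of 25 members and 49.7% of 21937 others, given without a test.

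Set beside the other 19 amino acids, the loops with an interior cysteine stood at the end of each scale. The mean log2 count of loops with the residue, less that of loops without it, was -0.60 for cysteine, -0.44 for methionine and -0.41 for isoleucine, and the highest was 0.31 for aspartate. The share with 1 count, 36.6%, was the highest of 20, with methionine next at 28.4%. The share found in another library, 12.1%, was the lowest, with methionine next at 14.9% and aspartate highest at 31.5%. Cysteine was also the rarest interior residue, found in 0.203% of clonotypes against 1.12% for methionine. These are descriptions without a test, since 1 loop counts under each residue it holds.

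**Figure D5:**
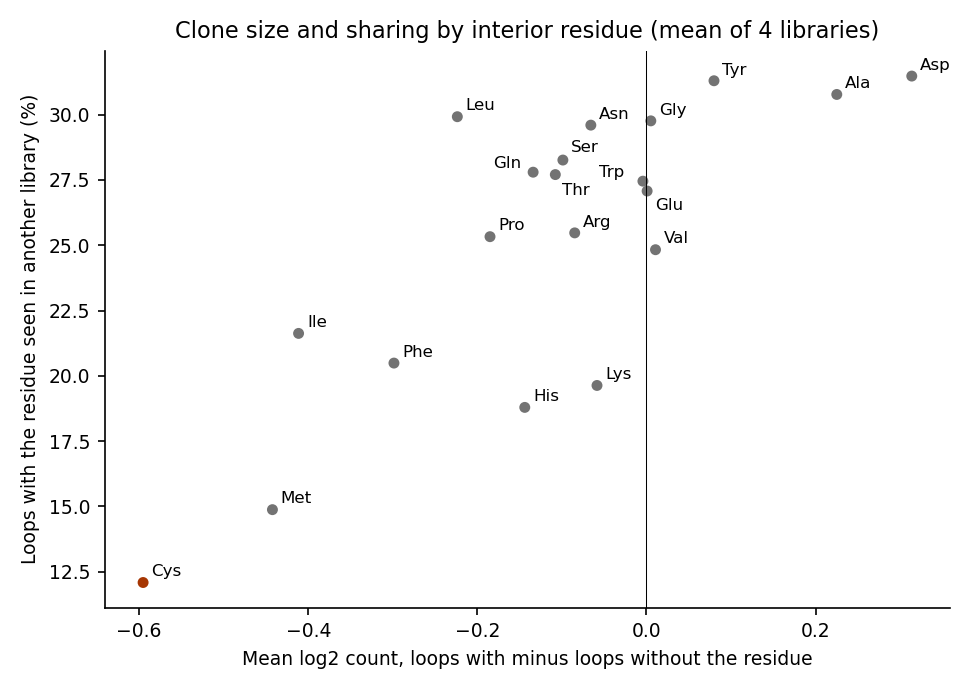
Each point is an amino acid: on the x axis the mean log2 count of loops that hold it in the window minus that of loops that do not, on the y axis the percentage of loops with it that were found in another library, both as means over 4 libraries. Cysteine, at -0.60 and 12.1%, is the lowest point on both axes.

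Finally, no segment set the genotypes apart among members. The number of members per V segment was compared between genotypes relative to all in-frame clonotypes of a library. In edgeR 0 of 15 segments passed (0.00%; smallest adjusted p = 0.51). The percentages of members below thus have another base than the log2 ratios. The count at an unadjusted p under 0.05 was 0, and that of DESeq2 was also 0. TRBV22 gave 6.98% and 8.05% of members in the wild-type pair against 2.91% and 2.74% in the Vsig4-deficient pair (log2 ratio -1.28 ± 0.63, Vsig4-deficient over wild-type, adjusted p = 0.51, edgeR). TRBV13-3 gave 4.65% and 10.1% against 11.7% and 13% (log2 ratio 0.75 ± 0.39, adjusted p = 0.51, edgeR). TRBV13-1 gave 8.14% and 10.1% against 5.83% and 4.11% (log2 ratio -0.81 ± 0.46, adjusted p = 0.52, edgeR). The pairs of these segments do not overlap, but a gap of this kind was not particular to them. TRBV1 gave 2.33% and 5.37% against 5.83% and 6.85%, and TRBV31 gave 3.49% and 3.36% against 4.85% and 6.16%. Whether the contrast of members with other loops differed between genotypes was tested directly: 0 of 23 V segments (0.00%; smallest adjusted p = 0.98) and 0 of 12 J segments (0.00%; smallest adjusted p = 0.63) passed in edgeR. In both fits the count at an unadjusted p under 0.05 was 0, as was that of DESeq2. In simulated data this V fit had a low recovery of the changes put in, so its count of 0 does not show that the genotypes are alike. For clone size, 1-count share, sharing, length and D use, exact permutation tests of the difference between genotypes gave p from 0.333 to 1.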

How the data were processed

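TRB libraries of 2 wild-type and 2 Vsig4-deficient samples were made from total RNA of sorted CD8+ T cells, per the labels' protocols. The deposited tables give, per the file headers, the CDR3 bases and segments of each clonotype, a whole-number clone count, the clone fraction and a quality score (the lowest CDR3 base quality). Not given in the sources used here are the assembly program, its filters, and whether a count is a read or a molecule. The submitters' processing notes name mm10. The deposited fraction equalled count over total in every row and served no other purpose. The deposited score reached 37 and set an alternative only.

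A clonotype was a row with an in-frame CDR3, without stop codon and of at least 10 residues. Interior cysteine meant position 5 to the 5th residue from the end. The source of each base came from the reference points in the deposited tables. V, J and residue numbers of clonotypes, not counts of reads, were tested with edgeR 4.0.16 (quasi-likelihood, library and class in the design, offsets from class totals, features with at least 10 over the samples, Benjamini-Hochberg within each fit, threshold 0.05, SE from the F statistic) in R 4.3.3. The fit of members per V segment by genotype instead had genotype alone in the design and offsets from all in-frame clonotypes of a library. DESeq2 1.42.0 was an alternative. The fits were tested on simulated data, where recovery of the changes put in was low for the V fit of class by genotype. Single values were compared between genotypes with exact permutation tests over 6 splits, and between classes with exact sign-flip tests over the 4 libraries, all two-sided. Intervals are 95% Wilson intervals and, like the limits that a count of 0 allows (3 counts), cover counting error only. Other values were computed in Python 3.11.15 with SciPy 1.17.1, pandas 2.3.3 and numpy 2.4.6, and plots drawn with matplotlib 3.10.9. All 37 segments that members used matched RefSeq symbols (GRCm38.p6, a patch release of the assembly that mm10 names).

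Wild-type 1 and 2 had 916335 and 901567 counts, Vsig4-deficient 1 and 2 had 1000179 and 1269480, and 1-count clonotypes made up 21.4%, 17.6%, 21.0% and 33.0%. Named were segments past the threshold and the 5 most used by members, amino acids past the threshold, the 5 largest members of each library and members in all 4 libraries, of which there were none. The 3 members in 3 libraries were named after their values were seen. The largest member of Vsig4-deficient 2 is not reported here. The members, lists and tests were chosen with earlier results of these data known. Alternatives left out each library, 1-count clonotypes, near variants, lower-quality loops or clonotypes under 1% of their share elsewhere, and changed the window, the clonotype, the normalization, the filter, the length or the replicate block.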

Additional observations from a re-analysis of the deposited data

How the results depend on the processing

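The difference in cysteine codons between in-frame and out-of-frame rearrangements kept its direction and its call under all 13 alternatives, with log2 ratios from -4.51 to -3.67. With at least 39 nucleotides in place of 45, alanine alone of the 10 called amino acids changed sign, from -0.17 to 0.017, and 15 amino acids passed in place of 10. Leaving out each library moved that count from 10 to 12. For V segments, 1 of the main 2 passed without TRBV22 and the other unusual rows (an alternative chosen after seeing the data), 1 passed at 14 residues, and 1 to 2 passed without a library. With TMM factors 3 passed, 2 of them higher, and with 1-count clonotypes left out 3 passed, all higher, both times including the main 2. For J segments 0 of the main 3 passed at 14 residues, where fewer clonotypes were tested, and 2 to 3 passed without a library. At 14 residues the log2 ratios also changed, from -1.21 to -0.01 for TRBJ1-1 and from -0.95 to -0.32 for TRBJ1-4. For interior residues, DESeq2 and the quality alternative each called 1 of the main 6, 0 passed without 1-count clonotypes, and 1 to 5 passed without a library. The cause of these losses was not tested.

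Without a library, the difference in the share of clonotypes between genotypes ran from 0.0117 to 0.0329 percentage points and that by counts from -0.0838 to -0.0394. The length difference ran from 0.312 to 0.619 residues, that of mean log2 count from -0.64 to -0.54, that of 1-count clonotypes from 12 to 15.3 and that of sharing from -14.9 to -13.2 percentage points. Sharing was at -17.5 with all libraries, and leaving out a library leaves fewer others in which a loop of either class can be found. TRBD1 ran from -12.3 to -9.69 and TRBD2 from 8.15 to 9.94. The share with no D assigned, 2.16 in the main comparison, ran from -0.26 to 3.62, turning without Vsig4-deficient 1. All other single-value alternatives kept the sign. Leaving out clonotypes over 0.1% of counts or under 5 counts was chosen after seeing the data.

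Libraries with the same replicate number are not said to share anything, and their deviations in V use had a correlation of -0.13 over 15 segments of members and 0.14 over 23 segments of all loops. With the replicate number as a block, 0 of 15 V segments differed between genotypes, as without it, and with the pairs crossed (chosen after seeing the data) again 0. With 86 to 149 members per library and 2 libraries a group, exact tests cannot pass 0.05, and the small numbers behind rare segments limit what can be seen.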
